A study of Mus musculus with 8 samples.

Results

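The genes described here were 40 cell cycle genes, taken as a fixed list of names and found in all 8 count tables, out of 24405 genes listed in any table. Of these, 20 act in DNA replication and are called S genes, and 20 act in G2 phase and mitosis and are called mitotic genes. Their unique molecular identifiers (UMIs), each of which counts 1 captured mRNA molecule, were summed in Kupffer cells, macrophages, monocytes, plasma cells, B cells, NK cells, CD4 T cells and CD8 T cells. Each type was the set of cells that passed a gate on the UMIs of a few marker genes. Over the 47542 cells with at least 500 UMIs the 40 genes held 195382 UMIs, 102032 of S genes and 93350 of mitotic genes.

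The data came from mouse heart, liver and kidney allografts taken at day 7 after transplantation and profiled by Microwell-seq, which captures single cells with barcoded beads in a microwell array. Donor organs came from BALB/c mice and recipients were C57BL/6 mice that received no immunosuppressive drug, while the labels give BALB/c, male and 8 weeks for every sample. The 8 libraries were blood mononuclear cells (PBMC) of heart, liver and kidney recipients, lymphocytes isolated from the 3 grafts (TIL) and parenchymal cells (PC) of liver and kidney grafts. There was 1 library for each condition, the labels do not say whether animals were pooled, and so no difference between conditions had a replicate check and no test was made.

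Cells that divide copy their DNA in S phase and separate the copies in mitosis, and both steps use proteins whose mRNAs are made in waves. E2F transcription factors drive many S genes, while B-Myb, FOXM1 and the DREAM complex act through CHR elements, and NF-Y through CCAAT elements, on many mitotic genes. Activated T cells divide quickly. Mature neutrophils do not divide, plasmablasts do before they become plasma cells, and Kupffer cells, the resident macrophages of the liver, can renew themselves by division in place.

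The promoters of the 40 genes carry the letters of these elements unequally, which is why 4 windows are printed here. RefSeq's promoter table for GRCm38.p6 matched 33 of the 40 genes, 16 S genes and 17 mitotic genes. The 250 bases before the start were searched on both strands for 3 sets of letters. For E2F these were TTTCCCGC, TTTCGCGC, TTTGCCGC and TTTGGCGC, for CHR they were TTTGAA and TTCGAA, and the last was CCAAT. E2F letters were found before 5 S genes (Mcm5, Mcm6, Mcm7, Cdc6 and Hells) and before 1 mitotic gene (Cdk1), against 2.16% of the 27025 genes in the table. CHR letters stood before 7 mitotic genes (Mki67, Top2a, Ube2c, Cdk1, Ccnb2, Cdc20 and Kif11) and 3 S genes (Mcm2, Mcm7 and Fen1), against 19.6% of all genes. CCAAT stood before 15 mitotic and 10 S genes, against 37.5%. A match shows only that the letters are present. The windows below show 2 genes with E2F letters and 2 with CHR letters, were chosen after the matches were known, and carry the matches in capitals. Overlapping matches run together in capitals, as in Mcm5, where 2 E2F matches overlap. In the order printed they lie at chr8:75109259-75109508 on the plus strand, chr1:128359706-128359955 on the minus strand, chr2:164769679-164769928 on the plus strand and chr4:118437344-118437593 on the minus strand, and each reads 5′ to 3′ and ends at the base before the gene's start.
Mcm5: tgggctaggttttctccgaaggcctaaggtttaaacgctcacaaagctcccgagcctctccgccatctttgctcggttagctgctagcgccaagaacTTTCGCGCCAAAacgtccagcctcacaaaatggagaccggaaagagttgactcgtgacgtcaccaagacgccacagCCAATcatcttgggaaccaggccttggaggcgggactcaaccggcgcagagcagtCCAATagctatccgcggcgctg
Mcm6: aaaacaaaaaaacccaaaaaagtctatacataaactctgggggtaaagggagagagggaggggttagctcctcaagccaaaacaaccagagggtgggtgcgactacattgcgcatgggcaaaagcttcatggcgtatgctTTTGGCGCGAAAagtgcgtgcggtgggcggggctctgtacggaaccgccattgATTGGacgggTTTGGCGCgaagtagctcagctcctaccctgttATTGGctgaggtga
Ube2c: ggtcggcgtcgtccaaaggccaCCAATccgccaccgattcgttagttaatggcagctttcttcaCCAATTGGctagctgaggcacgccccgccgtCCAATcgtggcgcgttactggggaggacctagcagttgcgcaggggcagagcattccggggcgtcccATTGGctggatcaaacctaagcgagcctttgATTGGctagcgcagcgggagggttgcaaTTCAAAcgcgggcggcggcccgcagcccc
Cdc20: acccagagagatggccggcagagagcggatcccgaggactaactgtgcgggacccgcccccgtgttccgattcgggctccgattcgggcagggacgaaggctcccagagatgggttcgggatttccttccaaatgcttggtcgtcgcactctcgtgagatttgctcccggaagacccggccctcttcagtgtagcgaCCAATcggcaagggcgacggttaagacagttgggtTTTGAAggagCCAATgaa

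Facts of the libraries bear on every value. The library labelled heart TIL held 1056 UMIs of the hepatocyte gene Alb and 207 of the Kupffer gene Clec4f, while the library labelled liver TIL held 0 of each and 128 of the cardiomyocyte gene Myl7. Both go against their labels and are called labelled heart TIL and labelled liver TIL here. Pairs of libraries shared between 1 and 600 cell barcodes. The gates overlapped: in liver PC 82.1% of cells held a UMI of Cd3d, Cd3e or Cd3g, and so did 83.8% of cells in the neutrophil gate and 77.4% of those in the macrophage gate. The CD8 T gate took 54.4% of the macrophage gate, 61.1% of the Kupffer gate and 52.0% of the monocyte gate. It also took 58.2% of the neutrophil gate, and the macrophage gate took 38.4% of it. Sums are therefore given for the gates as stated and again for cells that passed 1 gate and, outside the T gates, held no Cd3 UMI. A Kupffer cell could also pass the macrophage gate. A list of 9 T cell genes that no gate used (Trac, Trbc1, Trbc2, Lck, Cd2, Cd28, Cd5, Cd6 and Thy1) was summed beside the results. The neutrophil gate of the same library served as the background.

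Liver PC had cells in all 8 types. Values are in CPM, the UMIs of the genes in a gate scaled to 1000000 UMIs of its cells, with 95% Poisson intervals. S genes summed to 2484 CPM (2421 to 2548) in 1060 Kupffer gate cells, 1949 (1917 to 1980.3) in 3338 macrophage gate cells and 1793 (1759.7 to 1827) in 2838 monocyte gate cells. They summed to 2548 (2360.3 to 2746) in 110 plasma gate cells, 2914 (2584 to 3274) in 64 NK gate cells, 3333 (3112 to 3565) in 141 CD4 T gate cells and 3019 (2989 to 3050.3) in 6104 CD8 T gate cells. The neutrophil gate of 962 cells gave 2074 (2007 to 2142), so the macrophage and monocyte sums lay below this background and the others above it. These intervals, and all that follow, cover counting error only. A higher sum can come from more cells in cycle or from more of these mRNAs per cell, which the sums cannot tell apart.

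Mitotic genes gave the same order for the myeloid cells and put plasma cells higher. Their sums were 2073 CPM (2016 to 2132) in the Kupffer gate, 1693 (1664 to 1722) in the macrophage gate, 1568 (1536 to 1599) in the monocyte gate and 1869.7 (1807 to 1934) in the neutrophil gate. Plasma gate cells held 2759.5 (2564 to 2965), NK gate cells 2358 (2062 to 2684), CD4 T gate cells 3652 (3421 to 3895) and CD8 T gate cells 2968 (2938 to 2998). The T gates had the highest values of both lists, but the CD8 T interval overlapped that of NK cells for S genes and that of plasma cells for mitotic genes. B cells were too few in liver PC for comparison, with 20 gate cells at 2317 CPM (1788 to 2953) for S genes and 1711 (1262 to 2269) for mitotic genes.

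**Figure D1:**
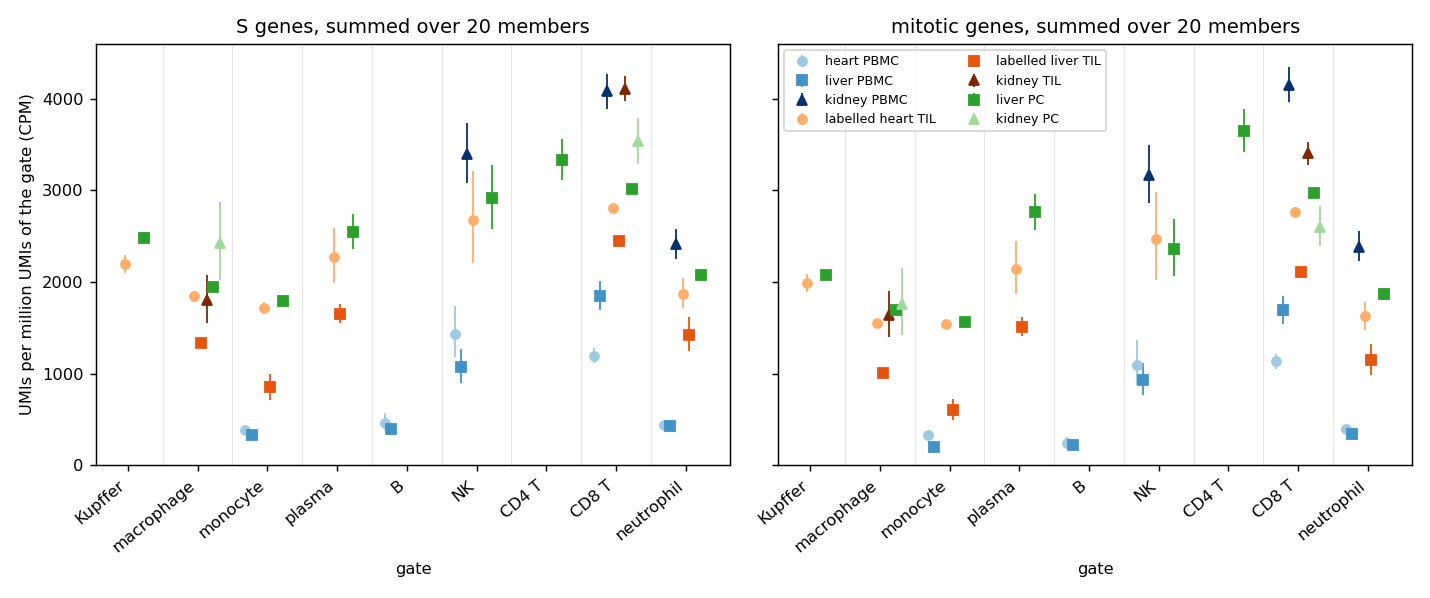
Summed S genes (one panel) and mitotic genes (the other) in CPM for each gate with at least 50 cells in the 8 libraries, with 95% Poisson bars. Marker shape stands for the organ and colour for the library. In liver PC the macrophage and monocyte gates sit below the neutrophil gate, and the CD4 T and CD8 T gates sit above the Kupffer gate.

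Set against the neutrophil gate on a log2 scale, with 1 CPM added to both sums, the S and mitotic ratios were 0.26 (0.20 to 0.32) and 0.15 (0.09 to 0.21) for Kupffer cells. They were -0.09 (-0.14 to -0.04) and -0.14 (-0.20 to -0.09) for macrophages and -0.21 (-0.26 to -0.16) and -0.25 (-0.31 to -0.20) for monocytes. Plasma cells stood at 0.30 (0.18 to 0.41) and 0.56 (0.44 to 0.68), NK cells at 0.49 (0.31 to 0.67) and 0.33 (0.14 to 0.53), CD4 T cells at 0.68 and 0.97 and CD8 T cells at 0.54 and 0.67. The T cell list differed as well: its ratio was -0.09 for Kupffer cells, -0.40 for macrophages, -0.42 for monocytes, -0.26 for NK cells, 0.61 for CD8 T cells and -1.31 for plasma cells. Its genes were detected in all of these gates, 8 of 9 in NK cells and 9 of 9 in the others, and it summed to 3187 CPM in macrophages, 4208 CPM in neutrophils and 6413 CPM in CD8 T cells. The part of T cell RNA in the myeloid sums was not tested.

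Among cells of 1 gate without Cd3 the neutrophil background was 1157 CPM (940.4 to 1409) for S genes and 1122 (909 to 1370.1) for mitotic genes, over 82 cells. Kupffer cells held 2115 (1938 to 2303) and 1593 (1440.2 to 1758) CPM over 114 cells, macrophages 1461 (1372 to 1554) and 1096 (1019 to 1177) over 379 cells, and monocytes 1017 (938 to 1102) and 841 (769 to 918) over 377 cells. Their T cell list stood at 819, 967 and 1075 CPM, below the 2069 CPM left in these neutrophils. The Kupffer over neutrophil ratio was 0.87 (0.56 to 1.19) for S genes and 0.51 (0.18 to 0.84) for mitotic genes. The macrophage S ratio was 0.34 (0.04 to 0.65), of the opposite sign to that of the overlapping gates, while its mitotic ratio of -0.03 (-0.34 to 0.29) was not distinguishable from 0.

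The median ratio of single S and mitotic genes in these cells was 0.94 and 0.54 for Kupffer cells, beside 0.67 over all genes tested, and 0.63 and 0.02 for macrophages, beside 0.56. In these neutrophils 16 S and 16 mitotic genes had under 10 UMIs, so a gene could pass the minimum of 10 UMIs through the larger gate alone. The medians therefore depend on the depth of both gates, and no conclusion is drawn from them. NK cells of 1 gate had sum ratios of 1.38 (1.04 to 1.74) and 1.23 (0.88 to 1.60) over 51 cells and medians of 1.43 and 1.34, beside 0.49 over all genes. The T cell list stood at 3517 CPM in these NK cells, above the 2069 CPM of the neutrophils of 1 gate, and its part was not tested. CD8 T cells had sum ratios of 1.68 (1.40 to 1.98) and 1.74 (1.46 to 2.05) over 3163 cells and medians of 1.84 and 2.03, beside 1.21.

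**Figure D2:**
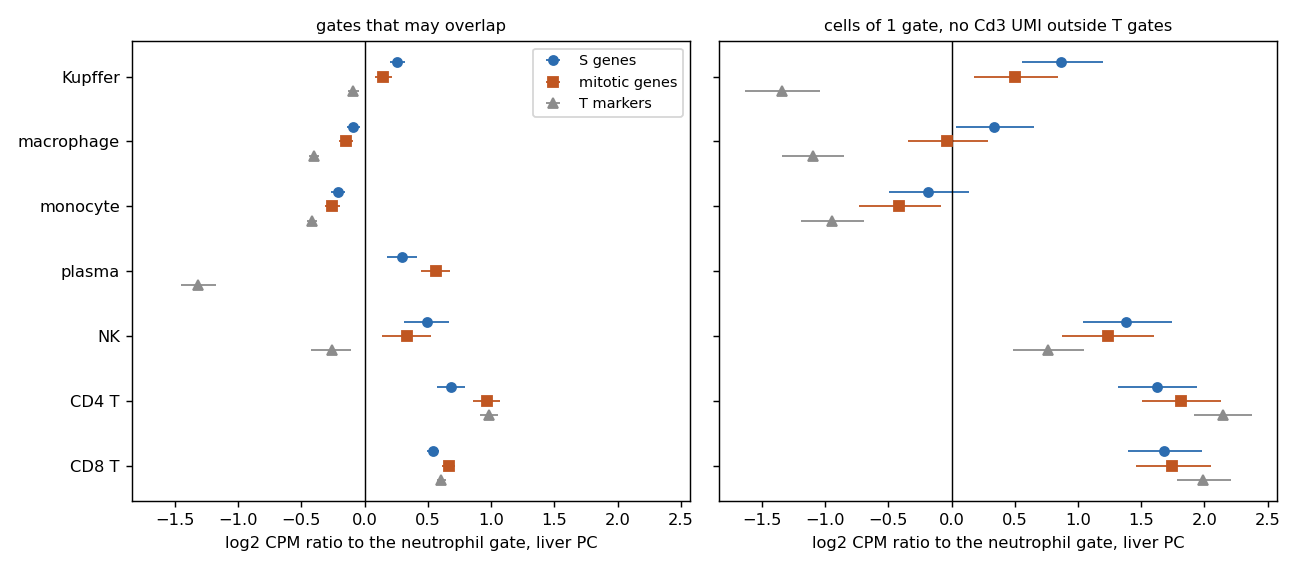
Log2 ratio of summed CPM to the neutrophil gate of liver PC, with 95% counting intervals, for S genes, mitotic genes and the T cell list. The left panel has gates that may overlap and the right panel cells of 1 gate. On the right the Kupffer S ratio is 0.87 where the T cell list is at -1.34, and the macrophage mitotic ratio is -0.03.

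Kupffer cells held more of both lists than macrophage gate cells. In liver PC the Kupffer over macrophage ratio was 0.35 (0.31 to 0.39) for S genes and 0.29 (0.25 to 0.34) for mitotic genes, with the T cell list higher as well at 0.31. The gates shared cells, since 54.6% of the Kupffer gate was also in the macrophage gate, and the intervals do not allow for shared cells. In cells of 1 gate the ratios were 0.53 (0.38 to 0.69) and 0.54 (0.36 to 0.72), with the T cell list at -0.24 (-0.47 to -0.01). Labelled heart TIL, the other library with Kupffer cells, gave 0.25 (0.17 to 0.32) and 0.36 (0.27 to 0.44), and 0.37 (0.19 to 0.56) and 0.37 (0.16 to 0.57) in cells of 1 gate, with the T cell list at -0.07. Both libraries thus had higher Kupffer sums of both lists under both ways of gating. Kupffer markers that the gate did not use (Vsig4, Marco, Timd4, Cd163, Slc40a1, Hmox1 and C6) summed to 4871 CPM in liver PC Kupffer cells of 1 gate, against 1693 CPM in macrophages, and 7 of 7 were detected.

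The gene with the most UMIs in the Kupffer S sum of cells of 1 gate was Pcna, the clamp that holds DNA polymerase on its template, at 377 CPM against 201 CPM in macrophages and 347 CPM in CD8 T cells. Its Kupffer over macrophage ratio was 0.91 (0.52 to 1.30). Pclaf, which binds PCNA, followed at 281 against 164 CPM, Mcm7 at 177 against 115 CPM and Mcm6 at 165 against 94.5 CPM. Mcm6 and Mcm7 are subunits of the replicative helicase. Rrm2, the regulated subunit of ribonucleotide reductase, stood at 173 against 93.0 CPM. Dut, which keeps dUTP out of DNA, was at 132 CPM in Kupffer cells, 122 CPM in macrophages and 506 CPM in CD8 T cells.

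Of the mitotic genes with at least 10 UMIs, 5 of 17 were at least 2-fold higher in Kupffer cells of 1 gate than in macrophages, where 7.26% of all genes tested were, and 0 of 20 S genes were. They were Nusap1, a spindle microtubule protein at 56.2 against 16.0 CPM, Mki67, which coats mitotic chromosomes, at 64.2 against 20.3 CPM, Ccna2 at 104 against 45.1 CPM, Tpx2 at 40.1 against 17.4 CPM, and Ccnb2 at 136 against 64.0 CPM. Ccna2 and Ccnb2 encode cyclins, and Tpx2 activates Aurora A on the spindle. Kupffer cells also carried granulocyte precursor RNA (Elane, Mpo and 8 more genes), at 554 CPM in cells of 1 gate against 145 CPM in macrophages, and its part in the ratio was not tested.

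Macrophages held less cycle RNA than CD8 T cells in each of the 5 libraries where both had 50 cells. In liver PC the ratio was -0.63 (-0.66 to -0.60) for S genes and -0.81 (-0.84 to -0.78) for mitotic genes, and in cells of 1 gate -1.34 (-1.44 to -1.25) and -1.78 (-1.88 to -1.67). It was -0.60 and -0.83 in labelled heart TIL, -0.88 and -1.07 in labelled liver TIL, -1.19 then -1.06 for kidney TIL, and -0.54 (-0.82 to -0.28) and -0.57 (-0.90 to -0.25) in kidney PC. For cells of 1 gate it was -1.10 and -1.43 in labelled heart TIL, -1.42 and -1.76 in labelled liver TIL, and for kidney TIL -1.28 and -1.22. The T cell list, whose genes CD8 T cells express, had a ratio of -1.01 in liver PC and -3.09 in cells of 1 gate.

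All 40 genes had ratios below 0 between the macrophage and CD8 T gates of liver PC. Single genes ran from -0.97 for Kif11, a kinesin that pushes spindle poles apart, to -0.28 for Gins2, a helicase cofactor, with medians of -0.60 for S genes and -0.81 for mitotic genes beside -0.05 for all 13833 genes tested. With overlapping gates 0 S and 0 mitotic genes were at least 2-fold lower, where 0.918% of all genes were. In cells of 1 gate 12 of 20 and 19 of 20 were, against 20.9% of all genes. Dut was the lowest S gene there, with 122 CPM in macrophages against 506 CPM in CD8 T cells, and Nusap1 the lowest mitotic gene, with 16.0 against 162 CPM (log2 ratio -3.26). Pcna stood at 201 against 347 CPM.

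In labelled liver TIL 5 S and 13 mitotic genes were at least 2-fold lower in macrophages than in CD8 T cells, where 3.83% of all genes were. The counts were 0 and 1 in labelled heart TIL, where 3.25% were, and 12 and 13 in kidney TIL, where 23.9% were. In kidney TIL the intervals of 9 S and 8 mitotic genes lay below 0. Of its 13 mitotic genes 3 were at 0 UMIs in macrophages. Kidney PC had 85 macrophage gate cells, and 6 of 17 S genes and 5 of 16 mitotic genes were at least 2-fold lower in them, where 16.9% of all genes were. In them 16 S and 18 mitotic genes had under 10 UMIs, so a gene could pass the minimum through the CD8 T gate alone. The intervals of 3 S genes and 1 mitotic gene lay below 0. Of the 6 S genes 2 were at 0 UMIs in these macrophages. Pcna was listed at 0 UMIs in these cells, a limit of 55.5 CPM, against 214 CPM in CD8 T cells of the library.

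**Figure D3:**
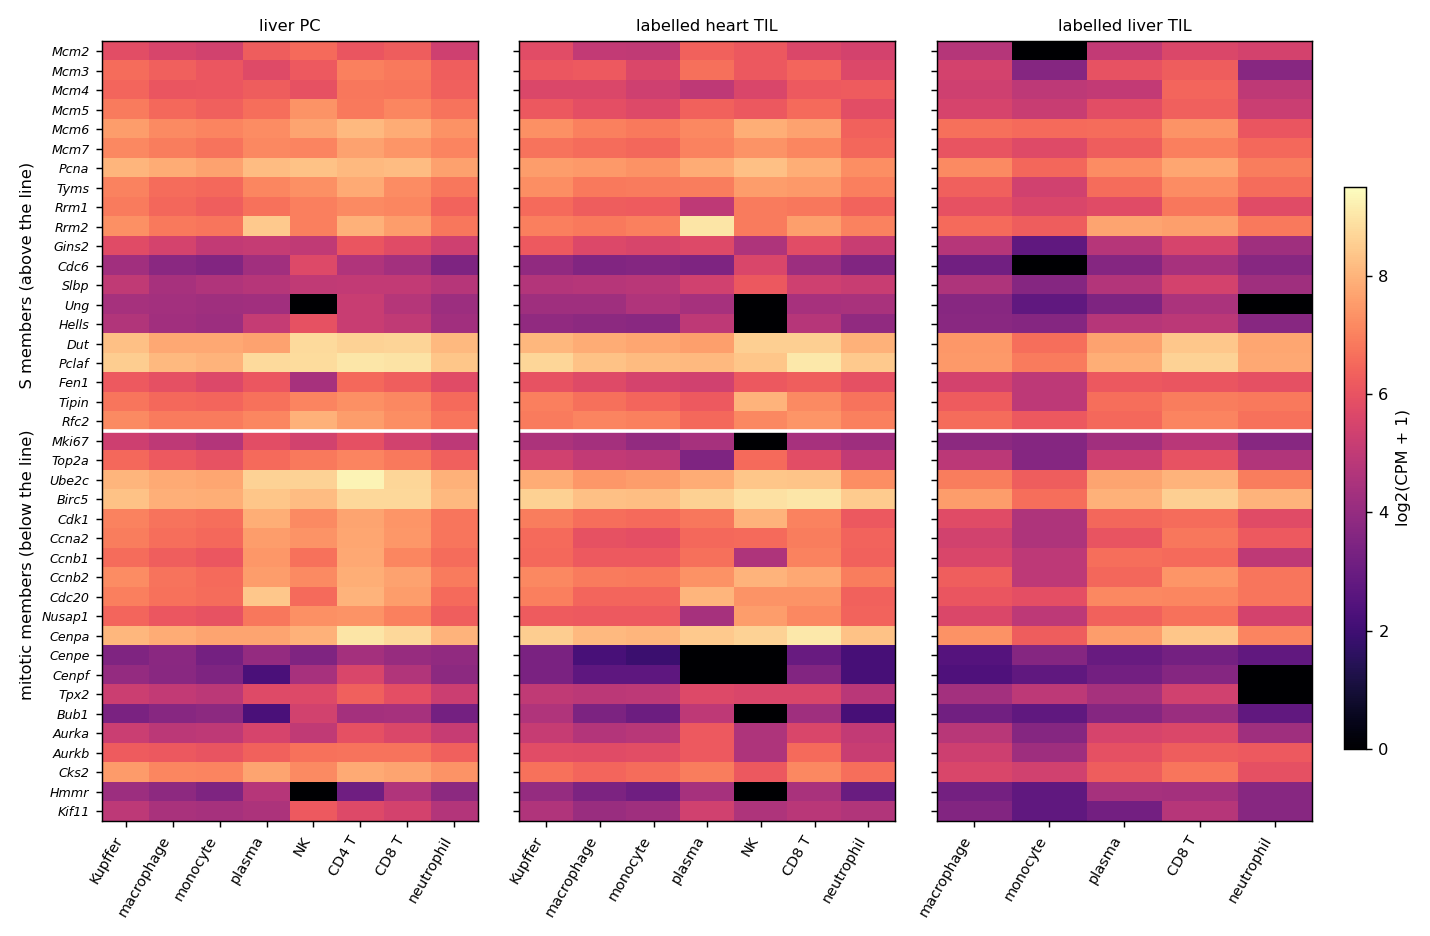
Log2 of CPM plus 1 for each of the 40 genes in the gates of liver PC, labelled heart TIL and labelled liver TIL, with S genes above the white line and mitotic genes below it, and black for a gene listed at 0. In liver PC Pclaf, Dut, Birc5, Ube2c and Cenpa are bright in each gate, and Cenpe, Cenpf, Bub1 and Hmmr are dark in each gate.

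The same few genes supplied most UMIs in each type. Pclaf, Dut and Pcna led the S genes of each liver PC gate except plasma cells, where Rrm2 came second after Pclaf. Pclaf stood at 366 CPM in Kupffer cells, 274 in macrophages, 252 in monocytes, 443 in plasma cells, 453 in NK cells, 523 in CD4 T cells, 494 in CD8 T cells and 331 in neutrophils. In the same order of types Dut stood at 302, 221, 219, 201, 443, 397, 404 and 277 CPM, and Pcna at 263, 232, 202, 286, 309, 275, 290.0 and 198 CPM. Pcna thus had a higher value than in neutrophils in each of the other gates, though in monocytes no S gene had an interval above 0. Dut was above neutrophils in Kupffer, NK and T cells and below them in macrophages, monocytes and plasma cells. Rrm2, among the leading S genes of 4 types, stood at 156 CPM in Kupffer cells, 349.6 CPM in plasma cells, 248 CPM in CD4 T cells and 185 CPM in CD8 T cells.

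Of the helicase subunits, Mcm6 stood at 188, 143, 132, 149, 206, 272, 228 and 161 CPM in that order, lowest in monocytes and highest in CD4 T cells. Mcm7 ran from 107 to 201 CPM in the same types, with 119.7 CPM in macrophages and 132 CPM in neutrophils. Mcm2 ran from 39.4 CPM in neutrophils to 92.7 CPM in NK cells, Mcm3 from 52.1 CPM in plasma cells to 126 CPM in CD4 T cells, Mcm4 from 61.8 CPM in NK to 110.2 CPM in CD4 T cells and Mcm5 from 79.5 CPM in monocytes to 165 CPM in NK cells. Gins2 and Fen1, the flap endonuclease, were lowest in NK cells, at 30.9 and 20.6 CPM, and highest in CD4 T cells, at 66.9 and 90.5 CPM. In the NK gate 9 S and 9 mitotic genes had under 10 UMIs, so lowest and highest values there can rest on few UMIs. Rfc2, a subunit of the clamp loader, ran from 109 CPM in neutrophils to 247 CPM in NK cells, with 116 CPM in monocytes. The nucleotide enzymes Rrm1 and Tyms and the fork protein Tipin were lowest in monocytes, at 76.7, 89.5 and 86.7 CPM, and highest in CD4 T cells, at 146, 224 and 157 CPM. Slbp, which binds histone mRNA, ran from 20.5 CPM in macrophages to 31.5 CPM in CD4 T cells, and Hells, a chromatin remodeller, from 16.9 CPM in monocytes to 61.8 CPM in NK cells.

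Among mitotic genes Birc5, a subunit of the chromosomal passenger complex, stood at 312 CPM in Kupffer cells, 244 in macrophages, 234 in monocytes, 327 in plasma cells, 288 in NK cells, 421 in CD4 T cells, 430.4 in CD8 T cells and 274 in neutrophils. Cenpa, the histone H3 variant of centromeres, stood at 266, 227, 209, 205, 247, 508, 426 and 256 CPM in the same types, and Ube2c, the ubiquitin-conjugating enzyme of the anaphase-promoting complex, at 261, 224, 212, 394, 391, 629.6, 412 and 245 CPM. All 3 were thus lower in macrophages and monocytes than in neutrophils. Cks2, which binds cyclin-dependent kinases, ran from 135 CPM in monocytes to 224 CPM in CD4 T cells, with 180.2 CPM in Kupffer cells, 138 CPM in macrophages, 209 CPM in CD8 T cells and 165 CPM in neutrophils. The cyclins Ccna2, Ccnb1 and Ccnb2 were lowest in monocytes, at 90.1, 68.1 and 92.8 CPM, and highest in CD4 T cells, at 213, 216 and 236 CPM. Ccnb2 stood at 148 CPM in Kupffer cells, 106 CPM in macrophages, 204 CPM in CD8 T cells and 117 CPM in neutrophils. Ccna2 and Nusap1, among the leading mitotic genes of NK cells, stood there at 165 and 154 CPM. Top2a, which untangles sister chromatids, Nusap1, Tpx2 and Mki67 had the same extremes, with 62.6, 63.2, 28.6 and 25.0 CPM in monocytes and 134, 165, 78.7 and 59.0 CPM in CD4 T cells. Aurka, the spindle pole kinase, ran from 28.2 CPM in macrophages and Aurkb, the passenger complex kinase, from 63.9 CPM in monocytes to 59.0 and 106 CPM in CD4 T cells. Kif11 reached 72.1 CPM in NK cells, and Cenpe, Cenpf, Bub1 and Hmmr stayed under 50 CPM in each of the 8 gates.

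Monocytes held less than macrophages, by an amount that varied with library and gating. In liver PC the macrophage over monocyte ratio was 0.12 (0.08 to 0.16) for S genes and 0.11 (0.07 to 0.15) for mitotic genes, and 0.52 (0.37 to 0.67) and 0.38 (0.22 to 0.55) in cells of 1 gate. In overlapping gates it was 0.11 (0.04 to 0.17) and 0.01 (-0.06 to 0.08) in labelled heart TIL and 0.65 (0.42 to 0.90) and 0.75 (0.47 to 1.05) in labelled liver TIL. The mitotic difference of labelled heart TIL was thus within counting error in these gates. In its cells of 1 gate the median over single genes was 0.17 for S and 0.30 for mitotic genes. At least 2-fold higher in macrophages of 1 gate in liver PC were 6 of 20 S and 2 of 17 mitotic genes, where 9.06% of all genes were. Monocytes of 1 gate carried granulocyte precursor RNA at 2416 CPM, and its part was not tested.

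Few genes of the plasma gate stood past 2-fold against neutrophils. In liver PC 1 of 20 S genes (Rrm2) and 2 of 20 mitotic genes (Cdc20 and Cdk1) were at least 2-fold higher, where 8.60% of all genes tested were. With CPM computed without immunoglobulin genes that share of all genes was 12.4%, a setting to which the counts above do not belong. With all genes in the CPM the median ratio was 0.22 for S genes and 0.43 for mitotic genes, beside -0.30 over all genes tested. At least 2-fold lower were 0 S and 2 mitotic genes (Bub1 and Cenpf, with 1 UMI each in plasma cells), where 26.7% of all genes were. The values of single genes are a description. Rrm2 stood at 349.6 CPM in liver PC plasma cells, 505 CPM in labelled heart TIL and 209 CPM in labelled liver TIL, against 185, 189.7 and 192 CPM in CD8 T cells and 112, 129.7 and 114 CPM in neutrophils of the same libraries. It was higher than in the CD8 T gate in all 3 libraries, though by little in labelled liver TIL. Its ratio to neutrophils was 1.64 (1.28 to 2.01), 1.95 (1.32 to 2.62) and 0.87 (0.17 to 1.65). Cdc20, the activator of the anaphase-promoting complex, stood at 338, 263 and 141 CPM, against 185, 163 and 138 CPM in CD8 T cells, with ratios to neutrophils of 1.84 (1.47 to 2.23), 1.69 (0.84 to 2.58) and 0.38 (-0.36 to 1.20). The last of these spanned 0. Cdk1, the kinase that starts mitosis, stood at 234 CPM in liver PC against 168 CPM in CD8 T cells, 98.0 CPM in monocytes and 108 CPM in neutrophils. Cdc20 stood at 252 CPM in CD4 T cells.

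Dut and Cenpa stood lower in plasma than in CD8 T cells. Dut stood at 201, 192 and 201 CPM in the 3 libraries against 404, 378 and 340.2 CPM in CD8 T cells. Its ratio to neutrophils in liver PC was -0.46 (-0.90 to -0.06), where the median over all genes tested was -0.30 and lies inside that interval. Cenpa stood at 205, 344 and 188 CPM against 426, 541 and 328 CPM in CD8 T cells.

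The sums of plasma cells exceeded those of neutrophils in all 3 libraries, with S and mitotic ratios of 0.28 (0.05 to 0.51) and 0.40 (0.16 to 0.64) in labelled heart TIL and 0.21 (0.01 to 0.42) and 0.40 (0.18 to 0.64) in labelled liver TIL. The T cell list had ratios of the opposite sign, -0.91 and -0.52. In liver PC only 33 plasma cells passed 1 gate without Cd3, with 91 S and 156 mitotic UMIs, so that S genes made up 36.8% of them (95% interval 30.8% to 43.2%). That share lay between 47.5% and 57.1% in the other types of 1 gate. The overlapping plasma gate of liver PC had 48.0% (45.4% to 50.6%), and plasma cells of 1 gate had 52.3% (42.5% to 62.1%) in labelled heart TIL and 51.0% (46.7% to 55.3%) in labelled liver TIL, so the low share was not seen outside these 33 cells. The plasma cell markers outside the gate summed to 100112 CPM in liver PC plasma gate cells, and 10 of 10 were detected.

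NK cells of liver PC came close to CD8 T cells in S genes. The NK over CD8 T ratio was -0.05 (-0.23 to 0.12) for S genes and -0.33 (-0.53 to -0.14) for mitotic genes, and -0.30 (-0.49 to -0.11) and -0.51 (-0.72 to -0.31) in cells of 1 gate. Against neutrophils 4 S genes (Cdc6, Hells, Mcm2 and Rfc2) and 3 mitotic genes (Bub1, Kif11 and Nusap1) were at least 2-fold higher, where 12.0% of all genes tested were. Cdc6, which loads the helicase, stood at 51.5 against 10.1 CPM (5 and 18 UMIs), a log2 ratio of 2.24 (0.56 to 3.83). Bub1, a checkpoint kinase, stood at 41.2 against 8.45 CPM (4 and 15 UMIs), a ratio of 2.16 (0.24 to 3.93). Both rest on few UMIs. Ung, a uracil glycosylase, and Hmmr, a spindle assembly protein, were listed at 0 UMIs in NK cells, a limit of 30.9 CPM that lies above the neutrophil level of 16.9 CPM of Ung. CD4 T cells held more mitotic RNA than CD8 T cells in overlapping gates, with a CD8 T over CD4 T ratio of -0.30 (-0.39 to -0.20), while in cells of 1 gate it was -0.07 (-0.17 to 0.04). Ube2c led the CD4 T mitotic genes at 629.6 CPM against 412 CPM in CD8 T cells.

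In blood NK and CD8 T cells held more of both lists than the neutrophil, Chil3 and B gates. In heart PBMC S genes summed to 1437 CPM (1176 to 1738) in 75 NK gate cells and 1192 (1111 to 1278) in 609 CD8 T gate cells, against 436 (419.8 to 453) in 7356 neutrophil gate cells, 378 in 2269 cells of the Chil3 gate, which stands for monocytes, and 465 in 251 B gate cells. In liver PBMC the values were 1067 (892 to 1266), 1849 (1697 to 2010.2), 429 (409 to 449.5), 323 and 395 CPM. Mitotic genes summed to 1098, 1131, 394, 328 and 237 CPM in heart PBMC and to 929, 1690.2, 344, 192 and 224 CPM in liver PBMC, for NK cells, CD8 T cells, neutrophils, the Chil3 gate and B cells in turn. The gates were not separate types, since the neutrophil gate took 91.1% of the Chil3 gate of heart PBMC and 67.1% of that of liver PBMC. In heart PBMC neutrophil markers summed to 162091 CPM in the Chil3 gate against 176493 CPM in neutrophils, and in its cells of 1 gate to 107752 CPM beside 38496 CPM of monocyte markers, so the name monocyte is not used for it there. The neutrophil gate also took 100% of NK and 95.6% of CD8 T gate cells of heart PBMC, and 63.3% and 67.2% of those of liver PBMC. CD8 T cells of 1 gate in liver PBMC stood above neutrophils by 2.92 (2.71 to 3.14) and 3.02 (2.79 to 3.25), and NK cells by 2.10 (1.71 to 2.48) and 2.17 (1.75 to 2.57), while the median ratio of single S and mitotic genes was 2.99 and 3.63 in CD8 T cells, beside 0.25 over all genes, and 1.82 and 2.24 in NK cells, beside -0.09. These medians cover the genes with at least 10 UMIs, 17 S and 13 mitotic genes for CD8 T cells and 16 and 13 for NK cells. Under 10 UMIs were 11 S and 12 mitotic genes in these CD8 T cells and 19 and 20 in these NK cells. The medians thus depend on depth, and no conclusion is drawn from them. The T cell list of the cells of 1 gate stood at 6652 CPM in CD8 T cells, 2450 CPM in NK cells and 610.3 CPM in neutrophils. Its part in the NK ratios was not tested.

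At least 2-fold higher than in neutrophils were 18 of 20 S and 16 of 17 mitotic genes in CD8 T cells of liver PBMC, where 16.9% of all genes tested were, and 13 of 20 and 13 of 17 in NK cells, where 20.4% were. In heart PBMC the counts were 18 of 20 and 15 of 18 in CD8 T cells, where 15.7% were, and 16 of 20 and 12 of 18 in NK cells, where 25.8% were. There 95.6% of CD8 T and 100% of NK gate cells also passed the neutrophil gate. In these NK cells 16 S and 17 mitotic genes had under 10 UMIs, and the intervals of 8 S and 7 mitotic genes lay above 0. In NK cells of liver PBMC those of 8 and 8 did. Kidney PBMC had the highest sums in blood, with 3400 CPM (3085 to 3739) of S genes in 138 NK gate cells and 4082 (3894 to 4277) in 369 CD8 T gate cells. Its neutrophil gate of 425 cells held 2412 CPM beside 4311 CPM of the T cell list, and its 179 neutrophils of 1 gate 831 CPM beside 2319 CPM. In cells of 1 gate NK cells stood above these neutrophils by 2.10 and 1.74 and CD8 T cells by 2.34 and 2.15.

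In the B gates of both blood libraries the mitotic sum was below that of neutrophils. Against neutrophils the S ratio was 0.09 (-0.21 to 0.38) in heart PBMC and -0.12 (-0.36 to 0.12) in liver PBMC, both within counting error of 0, while the mitotic ratio was -0.73 (-1.16 to -0.33) and -0.62 (-0.95 to -0.31). Of the mitotic genes 10 of 18 in heart PBMC and 8 of 17 in liver PBMC were at least 2-fold lower, where 19.5% and 8.11% of all genes were. Of these, 7 and 3 were listed at 0 UMIs in the B gate, and the intervals of 0 and 2 genes (Birc5 and Ube2c in liver PBMC) lay below 0. Ube2c stood at 4.65 against 24.5 CPM and at 7.55 against 27.7 CPM, and Birc5 at 41.8 against 66.2 CPM and 12.6 against 37.4 CPM. Nusap1 was listed at 0 UMIs in the B gate cells of heart PBMC, a limit of 13.9 CPM that lies above the 12.2 CPM of neutrophils. The neutrophil gate took 95.2% and 80.1% of these B cells. The B gate barred Cd3 UMIs and the neutrophil gate did not. The CD8 T gate took 7.91% of the neutrophil gate in heart PBMC and 3.58% in liver PBMC, and the part of these cells in the ratios was not tested. In the 78 B cells of liver PBMC of 1 gate, with Cd3 barred on both sides, the ratios were 0.58 (-0.01 to 1.11) and -0.11 (-0.95 to 0.62), both spanning 0.

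Monocytes of liver PC held more of both lists than monocytes of liver PBMC, and so did neutrophils, though the neutrophil gate shared 67.1% of the blood monocyte gate and 11.2% of that of liver PC. The ratio was 2.47 (2.35 to 2.60) for S genes and 3.02 (2.87 to 3.19) for mitotic genes in monocytes, 2.27 (2.19 to 2.36) and 2.44 (2.35 to 2.53) in neutrophils, 1.45 and 1.34 in NK cells and 0.71 and 0.81 in CD8 T cells. The T cell list differed as much, by 2.86 in monocytes and 2.29 in neutrophils. At least 2-fold higher were 18 of 20 S and 20 of 20 mitotic genes in monocytes, where 21.3% of all genes tested were, and 18 of 20 and 19 of 20 in neutrophils, where 21.0% were. Ung and Kif11 were listed at 0 UMIs in the 1766 blood monocytes, a limit of 1.71 CPM from 3 counts over the gate, so both were higher in liver PC, by at least 11.7-fold for Kif11. Rfc2 had the lowest S ratio in both types, 0.56 and 0.52. In cells of 1 gate the ratios were 2.02 (1.76 to 2.30) and 2.52 (2.19 to 2.89) in monocytes and 1.73 and 1.95 in neutrophils. These monocytes held granulocyte precursor genes at 2416 CPM in liver PC and 365 CPM in liver PBMC, and the T cell list at 1075 and 167 CPM. In neutrophils of 1 gate the values were 549 and 174 CPM of precursor genes and 2069 and 610.3 CPM of the T cell list. Their part in these ratios was not tested, and compartment and library cannot be told apart here.

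Among the TIL libraries, macrophages of labelled liver TIL held 1335 CPM (1295 to 1376) of S and 1009 (974 to 1045) of mitotic genes, against 1851 (1803 to 1901) and 1552 (1508 to 1597) in labelled heart TIL and 1799 (1549 to 2078) and 1634 (1396 to 1901) in the 148 cells of kidney TIL. The labelled liver over labelled heart ratio was -0.47 (-0.53 to -0.41) and -0.62 (-0.69 to -0.56), and the labelled heart over kidney ratio 0.04 (-0.17 to 0.26) and -0.07 (-0.30 to 0.16). In labelled liver TIL 20 S and 18 mitotic genes had ratios below 0 to labelled heart TIL, of which 13 and 13 had intervals below 0. Their medians were -0.38 and -0.53, beside -0.04 over all genes tested. Of either list 0 reached 2-fold lower, where 5.12% of all genes tested did. The neutrophils of this pair differed alike, by -0.39 (-0.62 to -0.17) and -0.51 (-0.76 to -0.26), CD8 T cells by -0.19 and -0.39, plasma cells by -0.46 and -0.50 and monocytes by -1.02 and -1.36. Labelled liver TIL also held erythroid RNA at 53514 CPM against 350.1 CPM in labelled heart TIL, and its part was not tested. In PC the liver over kidney ratio of macrophages was -0.31 (-0.56 to -0.06) and -0.05 (-0.34 to 0.25). Its median over single S and mitotic genes was -0.30 and -0.13, beside 1.30 over all genes. In the 85 kidney PC macrophages 16 S and 18 mitotic genes had under 10 UMIs. A gene could thus pass the minimum through liver PC alone, and no conclusion is drawn from these medians. CD8 T cells of kidney TIL differed from those of kidney PBMC by 0.01 (-0.07 to 0.09) for S genes and -0.29 (-0.37 to -0.20) for mitotic genes.

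Over the 70 comparisons of overlapping gates, 2587 single gene ratios had at least 10 UMIs, and 296 of them, in 38 of the 40 genes, were past 4-fold in either direction with the 1 CPM added. That is 11.4%, where 9.48% of the ratios of all genes were. Of the 296, 55 had 0 UMIs in a gate, so that their size depends on the added CPM. Rfc2 and Cks2 had none past 4-fold. Of these ratios 191 were between libraries and 105 between types of 1 library. Within liver PC those with UMIs in both gates were Bub1 and Cdc6 in NK cells against neutrophils.

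Shares of cells with cycle UMIs were compared after each cell was thinned to 500 UMIs, since depth differed between cells. In liver PC 26.4% of macrophage gate cells (882 of 3338) had at least 3 UMIs of the 40 genes, 33.4% of Kupffer, 22.3% of monocyte, 38.2% of plasma, 37.5% of NK, 47.5% of CD4 T and 42.8% of CD8 T gate cells. The neutrophil gate gave 25.2% (exact binomial interval 22.4% to 28.0%), which includes the macrophage share, and the monocyte share was just below it. Without thinning 77.0% of macrophages passed. In cells of 1 gate the shares were 32.5% of Kupffer cells, 17.2% of macrophages, 8.75% of monocytes, 43.1% of NK cells, 51.8% of CD8 T cells and 13.4% of neutrophils. Mitotic genes alone reached 3 UMIs in 21.8% of plasma cells, 11.3% of Kupffer cells, 8.72% of macrophages and 8.21% of neutrophils.

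The spread over cells differed by type. The variance of the count per 500 UMIs divided by its mean, which is 1 for counts with no difference between cells, was 3.82 in NK cells, 2.19 in CD8 T cells, 1.74 in macrophages and 1.66 in neutrophils of liver PC. The 64 NK cells had 29.7% of cells at 0 UMIs, 20.3% at 5 to 9 and 4.69% at 10 or more, the last of which rests on few cells. That level was reached by 2.13% of CD4 T, 1.82% of plasma and 1.57% of CD8 T cells. It was reached by 0.472% of Kupffer cells, 0.317% of monocytes, 0.0599% of macrophages and 0.208% of neutrophils. In liver PBMC the ratio was 3.31 in NK cells, 3.46 in CD8 T cells and 0.975 in B cells. In kidney PBMC it was 2.001 in NK cells, 2.39 in CD8 T cells and 3.07 in neutrophils, so NK cells were not the widest in each library. In liver PBMC the share with at least 3 cycle UMIs was 0.837% of B, 0.510% of monocyte, 1.61% of neutrophil, 10.2% of NK and 22.3% of CD8 T gate cells. In heart PBMC it was 1.10% of Chil3 gate cells, most of them also in the neutrophil gate, 1.86% of neutrophil, 14.7% of NK and 11.3% of CD8 T gate cells. Of the 527 monocytes of 1 gate in liver PBMC 0 had 3 such UMIs, which allows a share of up to 0.569%.

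**Figure D4:**
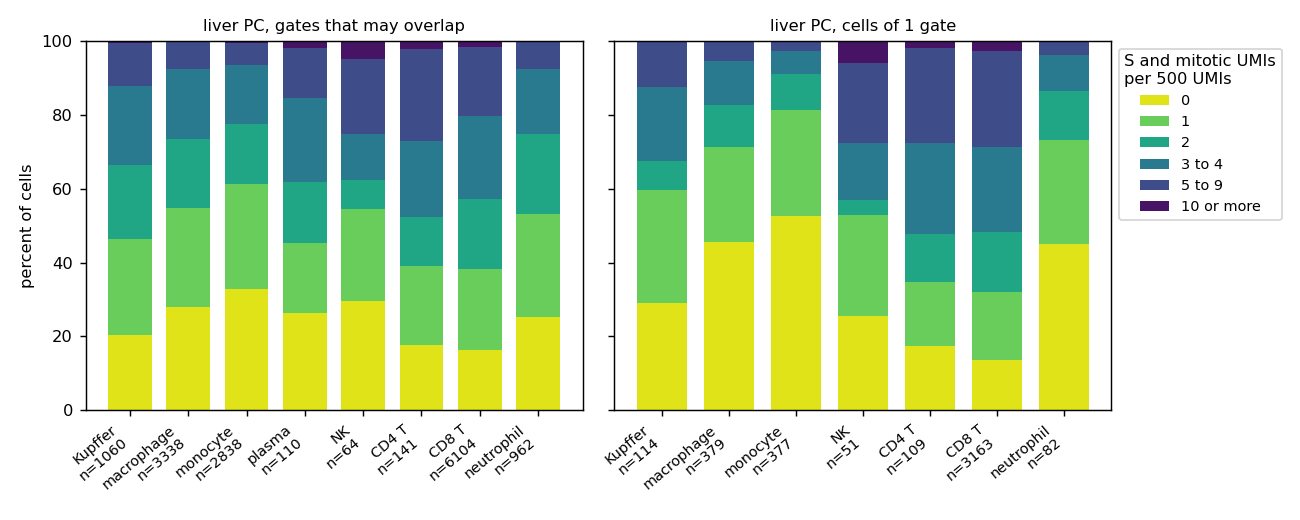
Share of cells (%) of liver PC with 0, 1, 2, 3 to 4, 5 to 9 and at least 10 UMIs of the 40 genes per 500 UMIs, for overlapping gates on the left and cells of 1 gate on the right. On the left the 64 NK cells have 4.69% of cells with at least 10 UMIs, CD4 T cells 2.13%, plasma cells 1.82%, CD8 T cells 1.57% and macrophages 0.0599%.

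The other graft libraries gave the following shares. In labelled heart TIL 31.6% of Kupffer, 24.0% of macrophage, 21.3% of monocyte, 36.2% of plasma, 36.5% of NK, 43.7% of CD8 T and 21.9% of neutrophil gate cells had at least 3 cycle UMIs. In labelled liver TIL they were 13.1% of macrophages, 4.11% of monocytes, 20.9% of plasma cells, 31.0% of CD8 T cells and 11.6% of neutrophils. Kidney TIL reached 25.7% of macrophages and 68.2% of CD8 T cells, and kidney PC 32.9% of 85 macrophages and 57.9% of CD8 T cells. CD8 T cells had the highest share of the types given in each of these libraries.

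Macrophage gate cells of liver PC with at least 3 cycle UMIs (882) were set against those with none (937) to see which other genes they carried. The 40 genes chose these sets, so only other genes are compared. Median depth was 1688 and 1922 UMIs. The T cell list was higher in cells with cycle UMIs by 1.28 (1.22 to 1.33) on the log2 scale and granulocyte precursor genes by 1.60 (1.43 to 1.78), while the ratio of macrophage markers (Apoe, Csf1r and 6 more) was -0.89 (-0.92 to -0.86). In Kupffer cells the T cell list had a ratio of 1.02, precursor genes of 2.57 and Kupffer markers of -1.16. In monocytes the T cell list stood at 1.46 and monocyte markers at -1.05, and in neutrophils the T cell list at 1.01 and neutrophil markers at -1.16. In each of the 4 gates, then, cells with cycle UMIs held more T cell RNA and less of the RNA of their own type. In CD8 T cells the T cell list stood at 0.64 and macrophage markers at -1.24. Blood neutrophils with cycle UMIs had T cell list ratios of 2.32 in heart PBMC and 2.65 in liver PBMC.

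In macrophages of 1 gate, 65 cells with and 173 without cycle UMIs, these ratios were smaller. They were 0.58 (0.26 to 0.89) for the T cell list, 1093 against 732 CPM, and -0.45 (-0.54 to -0.35) for macrophage markers, 9299.9 against 12669 CPM. Precursor genes stood at 1.51 (0.78 to 2.27). Plasma cells of labelled liver TIL, 118 with and 191 without, had ratios of 0.33 for the T cell list and -0.42 for plasma cell markers.

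**Figure D5:**
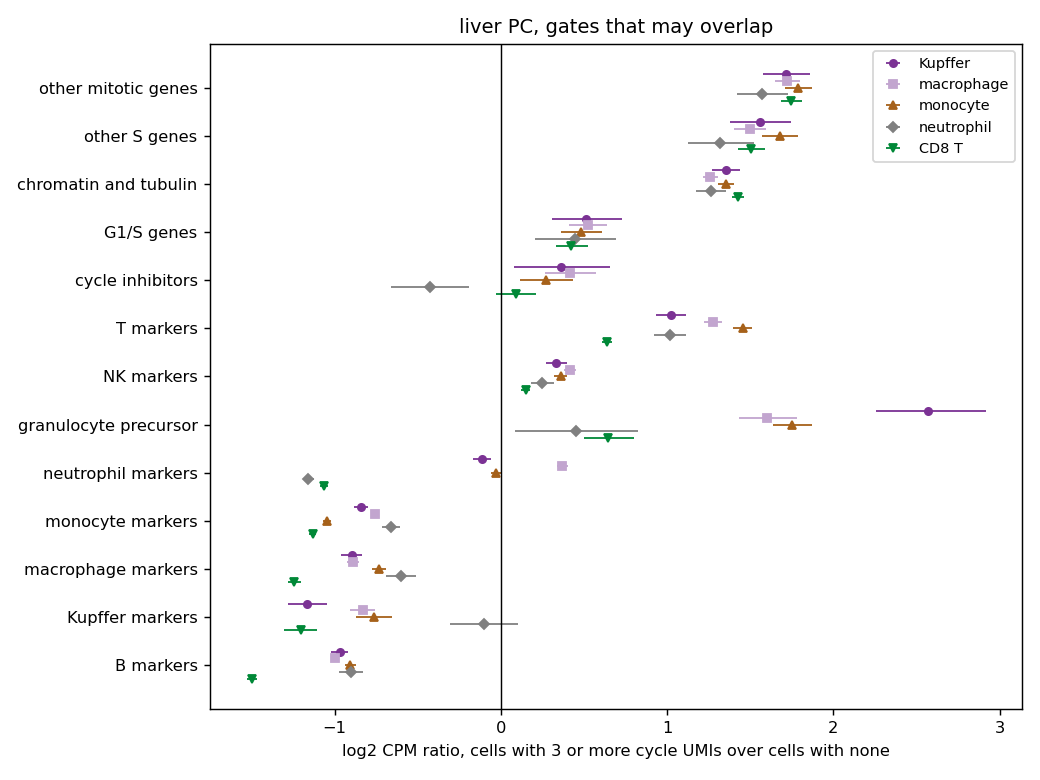
Log2 CPM ratio of liver PC cells with at least 3 UMIs of the 40 genes over cells with none, for lists of other cycle genes and for marker lists, in 5 gates, with 95% counting intervals. Other S and mitotic genes are higher in each gate, by 1.50 and 1.72 in macrophages, and the markers of the gate's own type are lower in the Kupffer, macrophage, monocyte and neutrophil gates.

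Cycle genes outside the 40 were higher in the same cells. 25 other replication genes had a ratio of 1.50 (1.40 to 1.59) in macrophage gate cells with cycle UMIs and 32 other mitotic genes one of 1.72 (1.65 to 1.80). Of them 22 of 25 and 30 of 32 were at least 2-fold higher, where 8.34% of all genes tested were. Counts were 21 of 24 and 30 of 31 in Kupffer cells, where 11.5% were, 23 of 24 and 32 of 32 in monocytes, where 10.5% were, and 18 of 22 and 23 of 28 in neutrophils, where 11.9% were. In macrophages of 1 gate they were 11 of 13 and 17 of 19, where 10.2% were, with list ratios of 1.82 and 2.03. A list of 19 chromatin, tubulin and nuclear transport genes stood at 1.26 in the macrophage gate, 16 genes of entry into S phase at 0.52 and 12 brakes of the cycle at 0.42, with 6 of 16 entry genes and 3 of 11 brakes at least 2-fold higher. In neutrophils the sum of the brakes stood at -0.43, while the median over single brakes was 0.05 and 3 of 9 were at least 2-fold higher. The median over single brakes was 0.02 in macrophages.

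Between the types given here the sums of the other cycle genes had the same order as those of the 40. In liver PC the other replication genes summed to 1046, 1298, 1552 and 1092 CPM in macrophages, plasma cells, CD8 T cells and neutrophils, and the other mitotic genes to 1679, 2164, 2684 and 1875 CPM. In that order of types Rpa2, which coats single-stranded DNA, stood at 104, 130.2, 185 and 125 CPM, Gmnn, an inhibitor of licensing, at 118, 145, 157 and 117 CPM and Tk1, a thymidine kinase, at 105, 141, 156 and 111 CPM. Arl6ip1 stood at 421, 309, 600.5 and 479.5 CPM, Smc4, a condensin subunit, at 108, 164, 184 and 122 CPM and Cdca8, a passenger complex subunit, at 105, 115, 170.4 and 124 CPM. Among the types given each of these 6 was highest in CD8 T cells, while Arl6ip1 and Cdca8 stood lower in plasma cells than in neutrophils. Tuba1b, Ran and Hmgb2 led the chromatin and tubulin list, at 805, 641 and 469 CPM in macrophages and 1007, 903 and 873 CPM in CD8 T cells.

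The brakes of the cycle had another order than the 40 genes. The entry list summed to 596, 673, 686 and 596 CPM in the same types. Ccnd2, a D-type cyclin, stood at 197 CPM in plasma cells against 62.2, 60.6 and 56.3 CPM in macrophages, CD8 T cells and neutrophils, while Ccnd3 stood at 78.1 CPM in plasma cells against 177, 207 and 218 CPM. Cdk4, their partner kinase, stood at 179 CPM against 151, 201 and 142 CPM. The brakes summed to 331, 483, 392 and 634 CPM, highest in neutrophils. Btg2, an antiproliferative gene, stood at 233 CPM in neutrophils against 56.2 CPM in macrophages and 64.8 CPM in CD8 T cells, and Cdkn2d, an inhibitor of CDK4 and CDK6, at 186 against 97.1 and 151 CPM. Cdkn1a, which encodes p21, stood at 46.2 CPM in macrophages, 24.2 CPM in CD8 T cells and 41.1 CPM in neutrophils.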

How the data were processed

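Count tables of 8 Microwell-seq libraries were used. The authors aligned reads to GRCm38 with STAR under a GENCODE annotation, removed multi-aligned reads and merged near-identical UMIs with the Drop-seq core tools, and the deposited values were raw UMI counts per gene and barcode. Genes with near-identical copies can therefore be undercounted. The tables hold 80000 barcodes and 62080306 UMIs, from 3418722 to 19171264 a library, and 47542 cells with at least 500 UMIs, whose median depth was 581 to 1501.5 UMIs.

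Gates on UMIs per cell were Clec4f and Cd5l (at least 1) for Kupffer cells, C1qa, C1qb and C1qc (5) for macrophages, Chil3 (5) for monocytes, Jchain (5) with Mzb1 (1) for plasma cells and Cd79a, Cd79b and Ms4a1 (2) without Cd3 for B cells. They were Ncr1, Klrb1c, Klra8, Klra4 and Klre1 (2) without Cd3 for NK cells, Cd3 with Cd4 or with Cd8a or Cd8b1 (1 each, without the other) for T cells and Retnlg, Csf3r and Cxcr2 (3) without Elane, Mpo, Prtn3, Ctsg and Ms4a3 for neutrophils. UMIs were summed per gate and scaled to CPM, with exact Poisson intervals at 95%. Ratios used a pseudocount of 1 CPM and exact conditional binomial intervals, and gates of at least 50 cells. Genes past 2-fold needed 10 UMIs over both sums, and the share of all genes past 2-fold is given beside them. Shares used cells thinned to 500 UMIs (seed 0) and exact binomial intervals, and a count of 0 is given as a limit of 3 counts. Doublets were not called. Cells passing several gates were left out in an alternative.

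All 40 genes were named, with values for the 5 S and 5 mitotic genes with the most UMIs in each liver PC type, for genes at 0 in gates of 1000 cells and for the 3 leading genes of each other list, while ratios past 4-fold outside liver PC are given as counts. The genes, lists and gates were chosen with earlier results of these data known. 2 marker genes of the other lists were left out of the sums of those lists and are not reported here. Alternatives covered depth, gates, thinning, pseudocount, thresholds, shared barcodes and CPM without immunoglobulin genes. The scripts were tested on simulated data. Python 3.11.15, numpy 2.4.6, scipy 1.17.1, pandas 2.3.3 and matplotlib 3.10.9 were used.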

Additional observations from a re-analysis of the deposited data

Results flagged for a closer look

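Cells of no gate, which enter none of the comparisons above, held more of S genes, mitotic genes or both than the neutrophil gate of their own library, with counting intervals that did not overlap, in 5 libraries, and they stand here for that reason. In liver PC 1040 such cells held 2426 CPM of S genes and 2093 CPM of mitotic genes, against 2074 and 1869.7 CPM in neutrophils, with the T cell list at 4757 CPM. In labelled heart TIL 2393 cells held 2405 CPM of S genes and 2059 CPM of mitotic genes, against 1872 and 1623 CPM, with the T cell list at 4912 CPM. In blood S genes stood at 716 CPM against 436 CPM in 186 cells of heart PBMC and at 544 CPM against 429 CPM in 622 cells of liver PBMC, and mitotic genes at 2931 CPM against 2387 CPM in 318 cells of kidney PBMC. The T cell list stood at 869, 966 and 4659 CPM in these cells of heart, liver and kidney PBMC. In labelled liver TIL 3361 such cells were higher as well, at 1592 CPM of S and 1284 CPM of mitotic genes against 1426 and 1143 CPM, with intervals that overlapped. A Cd3 UMI was present in 63.5% of these cells in liver PC. Which cell types they were was not tested.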

How the results depend on the processing

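31 results were recomputed under 357 alternatives, of which 227 left direction and size alike, 125 moved a value and 5 reversed it. No paired analysis was possible because each condition had 1 library. Leaving out replicates was not possible for the same reason. In the order of cells of 1 gate, stricter gates and cells of 1 gate with under 2 precursor UMIs (chosen after seeing the data), the liver PC ratios to neutrophils were 0.87, 0.53 and 0.87 for Kupffer S genes against 0.26, 0.34, 0.0073 and 0.30 for macrophage S genes against -0.09, where the direction turned, and 1.68, 0.96 and 1.67 for CD8 T S genes against 0.54. Mitotic CD8 T ratios were 1.74, 1.22 and 1.67 against 0.67. Mitotic Kupffer ratios were 0.51 and 0.39 for the first and last of these against 0.15, and mitotic macrophage ratios -0.034 and -0.25 for the first 2 against -0.14. Without the deepest 5% of cells the CD8 T S ratio was 0.62.

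In liver PC macrophages the mitotic sum of 1693 CPM became 1096, 1136 and 1068 CPM in those 3 settings, 1029 CPM in cells of 1 gate with no T cell list UMI (chosen after seeing the data), 1587 CPM without the deepest 5% and 1449 CPM without the leading gene. The share of 26.4% became 17.2%, 16.7% and 15.8%, 17.4% with no T cell list UMI, 77.0% without thinning, 45.2% and 7.40% for at least 2 and 5 UMIs, and 0.0599% for at least 10 UMIs (chosen after seeing the data). Genes at least 2-fold lower in macrophages than in CD8 T cells went from 0 to 31, 26 and 30, to 36 with no T cell list UMI and to 1 without the deepest 5% or with a pseudocount of 0.1 CPM, while the share of all genes tested that were so went from 0.918% to 20.9%, 8.91% and 21.2%, to 34.4% and to 1.19% and 3.62%. The T cell list in macrophages with cycle UMIs went from 1.28 to 0.58, 1.02 and 0.37, to 1.17 and 1.43 at 2 and 5 UMIs and to 1.95 without thinning. For macrophages of labelled liver over labelled heart TIL the mitotic ratio of -0.62 became -0.71, -0.83 and -0.73, and -1.29 with no T cell list UMI. With those labels exchanged the S and mitotic ratios were 0.47 and 0.62 by construction. These settings change which and how many cells enter. The cause of the changes was not tested. Gates of under 100 cells, overlapping gates and shallow libraries limit what single genes can show.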
